A study of Mus musculus with 18 samples.

Results

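The comparison described here sets colorectal tumours of Il1f9 knockout (KO) mice against colorectal tumours labelled Il1f5 KO, across all genes, in 4 of the 18 libraries of the series (n = 2 and 2). The members are defined by genotype and tissue label, and were chosen with earlier results of these data known. All mice were C57BL/6, and the tumours came from the azoxymethane (AOM) and dextran sulfate sodium (DSS) model, in which a mutagen and repeated epithelial injury give tumours in the mouse colon. The Il1f9 KO tumours carry the genotype Il1f9-/- and the others Il1f5-/-, and each line has its own wild-type (WT) tumours, Il1f9+/+ and Il1f5+/+ (n = 2 each). KO colons in DSS colitis served for comparison, with n = 2 for Il1f9 KO and n = 3 for the group labelled Il1f5 KO. The labels give no age, drug dose, tumour size, deleted exons or batch, and do not say whether 1 tumour or several went into a library. The Il1f9 and Il1f5 tumour libraries were deposited as separate tables, so the mouse line and anything that differed between the sets of libraries cannot be told apart. The labels do not state that the libraries of a group came from separate animals, and p-values measure the spread between these libraries.

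IL-36 cytokines are members of the IL-1 family that barrier epithelia release on injury. Il1f9 encodes IL-36 gamma, an agonist that signals through the receptor chains Il1rl2 and Il1rap and raises chemokines and repair genes in epithelium and stroma. Il1f5 encodes the IL-36 receptor antagonist, which binds the same receptor without signalling. The comparison therefore places tumours of mice bred to lack an agonist beside tumours of mice bred to lack its antagonist.

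The KO tumour libraries held 17953734 to 21527832 counts each, with 2.57 to 3.12% of counts on mitochondrial genes. Levels below are CPM (counts scaled to a common library total) after TMM scaling, which corrects for differences in composition. A gene was called at an adjusted p under 0.05 from edgeR's quasi-likelihood test, fitted on all 8 tumour libraries with Benjamini-Hochberg adjustment over 17859 genes. Fold changes are Il1f9 KO over labelled Il1f5 KO on the log2 scale, ± standard error. The correlation of log levels was 0.96 between the Il1f9 KO tumours, 0.98 between the tumours labelled Il1f5 KO and 0.94 to 0.95 across the groups.

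The targeted genes were read first. Il1f9 (ENSMUSG00000044103, chromosome 2, 24186476 to 24193568 in the tables) had 0.119 and 0 CPM in Il1f9 KO tumours, against 6.38 and 7.29 CPM in tumours labelled Il1f5 KO. That is 2 counts in the Il1f9 KO group against 282, a level 135-fold lower (37.0 to 1121, 95% interval from counting error), with an adjusted p of 0.0038 by edgeR. Il1f5 (ENSMUSG00000026983) went against its label. It had 0 CPM in both Il1f9 KO tumours, against 9.61 and 5.24 CPM in the tumours labelled Il1f5 KO, and 0 counts in all 4 WT tumours. With 0 allowing up to 3 counts over the group, the level in Il1f9 KO tumours was at least 99.9-fold lower. The colitis libraries had the same pattern, with 0 counts in Il1f9 KO colons and 36, 43 and 45 counts in colons labelled Il1f5 KO. Counts per gene do not show which exons the reads covered, so they cannot check a deletion that leaves part of the transcript. Every direction below assumes that the libraries labelled Il1f5 KO are what their label says.

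The other genes of the IL-36 axis did not pass the test. Il1f6, which encodes the agonist IL-36 alpha, had 2.21 and 1.67 CPM in Il1f9 KO tumours and 1.64 and 1.75 CPM in tumours labelled Il1f5 KO. Il1f8, which encodes IL-36 beta, had 3.88 and 1.44 CPM in Il1f9 KO tumours, against 0.82 and 0.411 CPM in tumours labelled Il1f5 KO (log2 fold change 2.09, adjusted p = 0.055, edgeR). It passed the test with 1 of the 8 libraries left out, Il1f9 KO replicate 2. The receptor chain Il1rl2 had 2.33 and 3.96 CPM in Il1f9 KO tumours and 3.32 and 4.52 CPM in tumours labelled Il1f5 KO, so the groups overlapped. Il1rap, the shared accessory chain, had 12.4 and 13.7 CPM against 8.02 and 10.7 CPM (log2 fold change 0.48, adjusted p = 0.18, edgeR). Per kilobase of gene length, the receptor chain Il1rl2 stood at 0.462 CPM in Il1f9 KO tumours and 0.576 CPM in tumours labelled Il1f5 KO, below Il1f6 at 2.19 and 1.92 CPM in the same groups.

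Across all genes, 2181 were higher in Il1f9 KO tumours (12.2% of those tested) and 1756 were lower (9.83%), together 22.0%. The median log2 fold change over all genes was -0.01. Of the calls, 1886 changed by 1 or more log2 units. The levels of 61.1% of all genes tested did not overlap between the groups, so a lack of overlap alone sets few genes apart at n = 2. The count of calls depended on single libraries, with 643 calls without the tumour labelled Il1f5 KO replicate 1 and 1749 without its replicate 2.

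The WT tumours of the same lines differed as widely. Between WT tumours of the Il1f9 line and of the Il1f5 line, 2999 genes were higher (16.8%) and 2097 lower (11.7%), together 28.5%. The KO and the WT comparison share no library. Of the 3937 genes called between KO tumours, 2141 were called in the same direction between WT tumours, which is 54.4% of the KO calls and 42.0% of the WT calls. Only 33 were called in opposite directions. The sign was the same for 3580 of the KO calls (90.9%). The difference between the contrasts is the Il1f9 KO effect minus the labelled Il1f5 KO effect. So few genes pass its test that a list with none passing, as for most lists below, does not show that its contrasts were alike. The test was passed by 14 genes (0.0784%), with 3076 genes at an unadjusted p under 0.05. This count rested on the tool and on single libraries, with 557 genes by the DESeq2 Wald test and by edgeR 276 without Il1f9 KO replicate 1, 319 without its replicate 2 and 2 without the WT tumour of the Il1f5 line replicate 2.

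**Figure D1:**
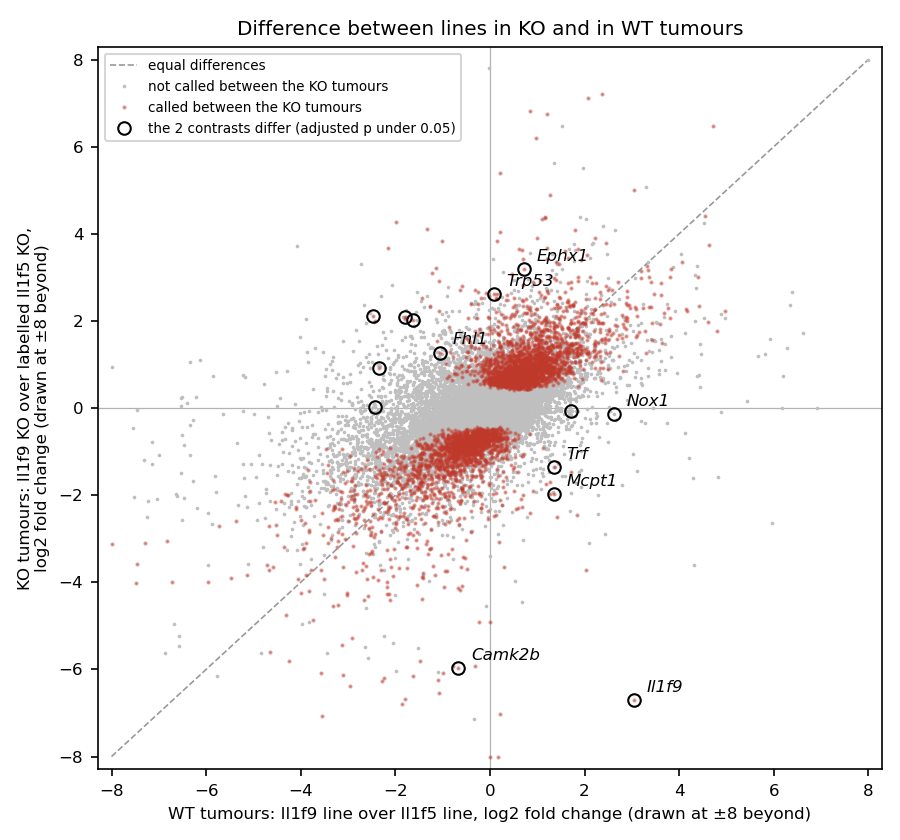
Log2 fold change of every tested gene between KO tumours (vertical axis, Il1f9 KO over labelled Il1f5 KO) and between WT tumours (horizontal axis, Il1f9 line over Il1f5 line). Red points are the 3937 genes called between KO tumours, and rings mark the 14 genes whose 2 contrasts differ. Most red points lie at the lower left and the upper right, and Trp53 and Camk2b lie near 0 on the horizontal axis.

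The gene with the smallest p in the KO comparison's difference from the WT comparison was Trp53, which encodes the tumour suppressor p53, a transcription factor that halts the cell cycle after DNA damage. Trp53 (ENSMUSG00000059552, chromosome 11, 69580359 to 69591873) had 101 and 93.8 CPM in Il1f9 KO tumours, against 15.1 and 16.7 CPM in tumours labelled Il1f5 KO. The WT tumours had 116 and 116 CPM in the Il1f9 line and 115 and 103 CPM in the Il1f5 line. Both tumours labelled Il1f5 KO were low, and the other 6 tumours lay within a narrow band. The fold change between KO groups was 2.61 ± 0.15 (adjusted p = 0.00033, edgeR), that between WT groups 0.09 ± 0.14 (adjusted p = 0.66), and the contrasts differed by 2.53 ± 0.20 (adjusted p = 0.0064). That difference was called in all 13 other settings tried, with adjusted p up to 0.037. The processed pseudogene Trp53-ps on chromosome 17, whose sequence resembles Trp53, had 1.07 and 1.49 CPM in Il1f9 KO tumours and 0 and 0.0513 CPM in tumours labelled Il1f5 KO, and reads may be shared between them.

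Genes that p53 is known to activate were higher in Il1f9 KO tumours. Of 15 genes on the p53 list, Trp53 among them, 11 rose (73.3%, against 12.2% higher over all genes) and none fell. The median log2 fold change was 0.88. Phlda3, an inhibitor of Akt signalling, had 142 and 133 CPM in Il1f9 KO tumours, against 24.1 and 26.8 CPM in tumours labelled Il1f5 KO (2.43 ± 0.18, adjusted p = 0.0009, edgeR). Ccng1, which encodes cyclin G1, had 225 and 196 CPM in Il1f9 KO tumours, against 42.2 and 44.4 CPM in tumours labelled Il1f5 KO (2.28 ± 0.18, adjusted p = 0.0011). Cdkn1a, which encodes the cell cycle inhibitor p21, had 418 and 481 CPM, against 115 and 105 CPM in tumours labelled Il1f5 KO (adjusted p = 0.0018). Eda2r, a receptor of the TNF receptor family, had 24.2 and 21.1 CPM in Il1f9 KO tumours and 0 and 0.308 CPM in tumours labelled Il1f5 KO. In each of these 4 genes every Il1f9 KO tumour stood above every tumour labelled Il1f5 KO. They were picked among called genes, and 61.1% of all genes tested did not overlap between the groups.

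Bbc3, Zmat3, Aen and Gtse1, the other 4 members, were not called, with log2 fold changes of 0.03, 0.38, -0.02 and -0.35. Mdm2, which encodes the ligase that degrades p53, had 65.7 and 67.6 CPM in Il1f9 KO tumours and 33.1 and 39.5 CPM in tumours labelled Il1f5 KO (adjusted p = 0.0091, edgeR). Of the 15, 7 were called without the tumour labelled Il1f5 KO replicate 1, and Mdm2 was not (adjusted p = 0.083). Between WT tumours, where Trp53 was not called, 7 of the 15 were higher in the Il1f9 line and none lower (median 0.47). Phlda3 had 131 and 124 CPM in WT tumours of the Il1f9 line, against 31.0 and 42.5 CPM in those of the Il1f5 line. No list member other than Trp53 passed the test of the difference between the contrasts.

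**Figure D2:**
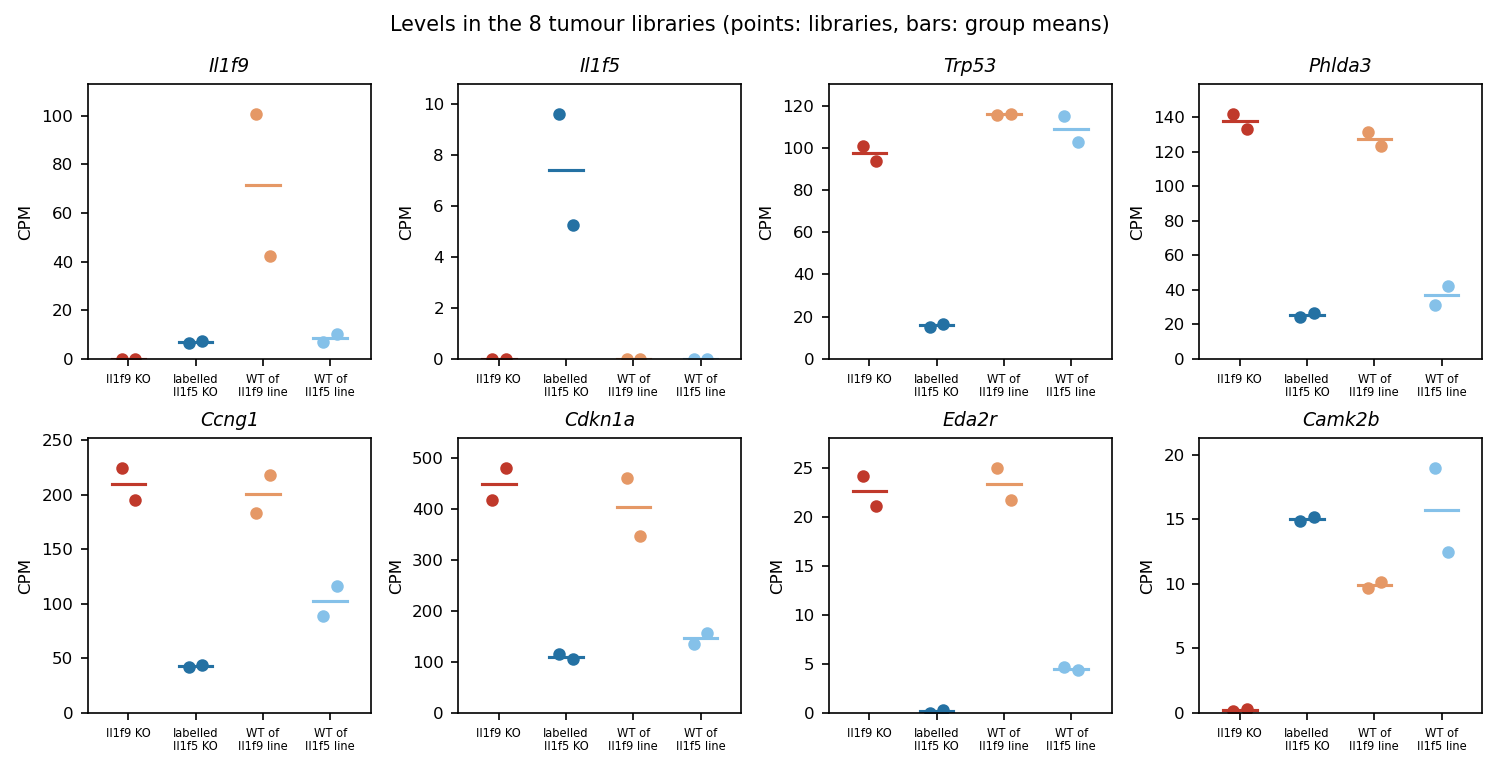
Levels in CPM of 8 genes in the 8 tumour libraries, with 1 point for each library and a bar for the group mean (n = 2). Trp53 is low in both tumours labelled Il1f5 KO, at 15.1 and 16.7 CPM, and Camk2b is low in both Il1f9 KO tumours, at 0.179 and 0.287 CPM.

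The promoters of the p53 list were searched because most of these genes were higher in Il1f9 KO tumours. The search used the p53 consensus element, a pair of adjacent decamers with no spacer, over 20 bases with at most 1 mismatch. The element is its own reverse complement, so a match stands on both strands. RefSeq promoters (GRCm38.p6, 250 bases before to 50 after the start) were found for 13 of the 15 genes, 20 promoters in all. Of these 20, 3 held a match, each of another gene, against 29 of all 32851 promoters (0.0883%). The 3 are Ccng1 and Cdkn1a, which rose, and Gtse1, which had an adjusted p of 0.27. The list was made of genes that p53 is known to activate, so a share of matches above that of all promoters can follow from this choice. Such a match describes the sequence only. The promoters of the called pair follow, read 5′ to 3′ on the gene's strand, with the match in capitals. They lie at chr11:40755237-40755536 on the minus strand (Ccng1, match at bases 56 to 75) and chr17:29090729-29091028 on the plus strand (Cdkn1a, match at bases 200 to 219).
Ccng1: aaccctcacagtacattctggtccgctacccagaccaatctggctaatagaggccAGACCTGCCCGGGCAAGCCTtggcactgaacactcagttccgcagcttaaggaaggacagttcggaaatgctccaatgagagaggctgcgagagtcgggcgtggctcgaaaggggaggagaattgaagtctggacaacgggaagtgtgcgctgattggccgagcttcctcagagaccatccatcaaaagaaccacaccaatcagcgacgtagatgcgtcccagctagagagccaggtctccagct
Cdkn1a: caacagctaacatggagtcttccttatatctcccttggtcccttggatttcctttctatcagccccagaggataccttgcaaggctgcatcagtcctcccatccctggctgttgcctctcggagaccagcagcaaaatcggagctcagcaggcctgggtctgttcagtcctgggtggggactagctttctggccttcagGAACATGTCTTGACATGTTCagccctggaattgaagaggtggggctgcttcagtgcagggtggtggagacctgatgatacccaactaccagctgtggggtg

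Ephx1 and Camk2b also differed more between KO tumours than between WT tumours. Ephx1, the microsomal epoxide hydrolase, had 51.7 and 38.7 CPM in Il1f9 KO tumours, against 4.69 and 5.24 CPM in tumours labelled Il1f5 KO. Its WT levels were 36.4 and 30.3 CPM in the Il1f9 line and 19.0 and 21.6 CPM in the Il1f5 line. Unlike Trp53, it was called between WT groups as well (0.72 ± 0.20, adjusted p = 0.027, edgeR). The KO contrast was 3.19 ± 0.22 (adjusted p = 0.00062, edgeR) and exceeded the WT contrast by 2.47 ± 0.29 (adjusted p = 0.032), which reached 0.15 without the WT tumour of the Il1f5 line replicate 2. Camk2b, a subunit of calcium/calmodulin-dependent kinase II, had 0.179 and 0.287 CPM in Il1f9 KO tumours and 14.9 and 15.1 CPM in tumours labelled Il1f5 KO. WT tumours had 9.64 and 10.2 CPM in the Il1f9 line and 19.0 and 12.5 CPM in the Il1f5 line, so the Il1f9 KO tumours alone were low. Its KO contrast was -5.96 ± 0.38 (adjusted p = 0.00046), and it differed from the WT contrast by -5.30 ± 0.46 (adjusted p = 0.0082), a call that held in all 13 other settings.

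The named rises and falls were the 12 largest in each direction among called genes of moderate level. Rises ran from 3.01 to 7.21 and were led by Eda2r, Anxa10 and Defa23. Wincr1, a long noncoding RNA, had 6.51 and 11.03 CPM in Il1f9 KO tumours, against 0.592 and 0.719 CPM in tumours labelled Il1f5 KO (3.73 ± 0.38, adjusted p = 0.002, edgeR). Anxa10, an annexin of gastric epithelium, had 15.3 and 5.63 CPM in Il1f9 KO tumours and 0.319 and 0.667 CPM in tumours labelled Il1f5 KO. Ptgs2, which encodes the inducible prostaglandin synthase, had 144 and 139 CPM, against 12.4 and 19.5 CPM in tumours labelled Il1f5 KO (3.15 ± 0.45, adjusted p = 0.0062). Only 3 of the 12 rises, Eda2r, Wincr1 and Ephx1, stayed called with each of the 8 libraries left out. Without the tumour labelled Il1f5 KO replicate 1 the adjusted p was 0.10 for Anxa10 and 0.058 for Ptgs2. Defa23, a Paneth cell defensin with near-identical paralogs, was high in 1 Il1f9 KO tumour, with 53.7 and 4.88 CPM, against 1.82 and 1.59 CPM in tumours labelled Il1f5 KO, and its adjusted p of 0.049 became 0.21 without that labelled Il1f5 KO library. The remaining rises were Gbp2b, Dsg4, Clec4e, Hspa1a, Cxcl2 and Acod1, each of which lost its call without that library, with adjusted p of 0.056 for Gbp2b to 0.22 for Acod1.

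Falls ran from -6.27 to -2.89. H19, an imprinted noncoding RNA of fetal growth, had 3.40 and 2.64 CPM in Il1f9 KO tumours, against 327 and 140 CPM in tumours labelled Il1f5 KO (-6.27 ± 0.86, adjusted p = 0.0085, edgeR). Its adjusted p was 0.062 without Il1f9 KO replicate 2. Cd177, a surface protein of neutrophils and of some epithelial cells, fell while other neutrophil genes rose, with 84.9 and 57.4 CPM in Il1f9 KO tumours, against 966 and 480 CPM in tumours labelled Il1f5 KO (-3.35 ± 0.46, adjusted p = 0.0051). Col9a3, a chain of cartilage collagen IX, had 8.30 and 9.94 CPM, against 158 and 76.6 CPM in tumours labelled Il1f5 KO (-3.69 ± 0.46, adjusted p = 0.004). Faim2, an inhibitor of Fas-mediated death, had 2.75 and 2.81 CPM in Il1f9 KO tumours and 55.4 and 25.9 CPM in tumours labelled Il1f5 KO (-3.87 ± 0.37, adjusted p = 0.0019). Faim2, Col9a3 and Cd177 stayed called with each library left out, as did Camk2b, Gnao1, Wnk2, Cep112it and Lrp3. Siglec15 reached an adjusted p of 0.083 and Ighg1 of 0.21 without Il1f9 KO replicate 2, and Nfasc of 0.14 without the tumour labelled Il1f5 KO replicate 1.

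Among gene lists, the genes of fetal-like and wound epithelium, which injured colon epithelium raises during repair, had the most members changed. Of 20 tested, 15 rose and 1 fell, with a median of 1.30, against 12.2% higher over all genes. In bulk RNA, more cells of a type and more RNA per cell cannot be told apart. Anxa1, an annexin of resolving inflammation, had 2043 and 2584 CPM in Il1f9 KO tumours, against 352 and 473 CPM in tumours labelled Il1f5 KO. The laminin chain Lama3 had 598 and 509 CPM in Il1f9 KO tumours and 102 and 153 CPM in tumours labelled Il1f5 KO (2.12 ± 0.21, adjusted p = 0.0019, edgeR). Msln, which encodes mesothelin, had 101 and 115 CPM in Il1f9 KO tumours and 27.3 and 28.5 CPM in tumours labelled Il1f5 KO (1.96 ± 0.19, adjusted p = 0.0019). The exception was Clu, which encodes clusterin and marks revival stem cells in mouse intestine, with 527 and 291 CPM in Il1f9 KO tumours, against 1057 and 907 CPM in tumours labelled Il1f5 KO. Clu stayed called with only 3 of the 8 libraries left out in turn, and its adjusted p was 0.16 without the tumour labelled Il1f5 KO replicate 1, when 11 of the 20 were higher. Between WT tumours 17 of the 20 were higher in the Il1f9 line (median 1.40), and no member's contrasts were found to differ.

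The EGF receptor and its ligands followed the same direction, with 6 of 11 higher and none lower (median 1.09). That is 54.5%, against 12.2% higher over all genes. Between WT tumours 5 were higher in the Il1f9 line and 1 lower (median 0.35), and no member's contrasts were found to differ. Egfr, the receptor, had 131 and 118 CPM in Il1f9 KO tumours, against 48.8 and 49.0 CPM in tumours labelled Il1f5 KO (1.35 ± 0.14, adjusted p = 0.002, edgeR). Among the ligands, Areg, which encodes amphiregulin, had 106 and 141 CPM in Il1f9 KO tumours and 30.5 and 30.1 CPM in tumours labelled Il1f5 KO (2.03 ± 0.17, adjusted p = 0.0012). Ereg, which encodes epiregulin, had 37.2 and 55.9 CPM, against 10.2 and 9.14 CPM in tumours labelled Il1f5 KO (2.27 ± 0.32, adjusted p = 0.004). Tgfa and the co-receptor Erbb2 were not called, with log2 fold changes of -0.12 and -0.40. The count was 3 of 11 without the tumour labelled Il1f5 KO replicate 1 and 4 without its replicate 2. Areg and Ereg belong to the wound list as well.

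Crypt stem cell and Wnt target genes went the other way. Of 23 tested, 11 fell and 2 rose, with a median of -0.90, against 9.83% lower over all genes. Between WT tumours 6 were lower in the Il1f9 line and 3 higher (median -0.46), and no member's contrasts were found to differ. Smoc2, a matrix protein of the crypt base, had 50.3 and 55.1 CPM in Il1f9 KO tumours, against 412 and 254 CPM in tumours labelled Il1f5 KO (-2.66 ± 0.26, adjusted p = 0.002, edgeR). Nkd1, an inhibitor that Wnt signalling induces, had 229 and 255 CPM in Il1f9 KO tumours and 620 and 606 CPM in tumours labelled Il1f5 KO (-1.34 ± 0.19, adjusted p = 0.0036). Axin2, another such inhibitor, had 231 and 180 CPM, against 363 and 401 CPM in tumours labelled Il1f5 KO (adjusted p = 0.011). Lgr5, the crypt base stem cell receptor, had 16.4 and 24.01 CPM in Il1f9 KO tumours and 63.5 and 59.0 CPM in tumours labelled Il1f5 KO, with an adjusted p of 0.093. Cd44 and Dkk2 were the members that rose. Cd44, a hyaluronan receptor, had 484 and 451 CPM in Il1f9 KO tumours, against 209 and 189 CPM in tumours labelled Il1f5 KO. The count of falls was 2 without the tumour labelled Il1f5 KO replicate 1, 3 without its replicate 2 and 4 without Il1f9 KO replicate 2, while Smoc2 and Nkd1 stayed called. The adjusted p of Axin2 was 0.057 without the tumour labelled Il1f5 KO replicate 1 and 0.060 without its replicate 2, and that of Dkk2 was 0.10 without replicate 1.

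Proliferation genes fell as well, with none higher and 11 of 25 lower (44.0%, against 9.83% over all genes, median -0.57). They were Mcm2, Mcm3, Mcm4, Mcm5, Mcm6, Top2a, E2f1, Plk1, Aurkb, Bub1b and Foxm1. Mcm3, a subunit of the replicative helicase, had 44.8 and 48.7 CPM in Il1f9 KO tumours, against 126 and 98.3 CPM in tumours labelled Il1f5 KO (-1.26 ± 0.16, adjusted p = 0.0027, edgeR). Mcm6 of the same complex had 55.1 and 58.8 CPM in Il1f9 KO tumours and 137 and 115 CPM in tumours labelled Il1f5 KO (-1.15 ± 0.14, adjusted p = 0.0027). Foxm1, a transcription factor of mitotic genes, had 16.4 and 16.8 CPM, against 52.7 and 39.7 CPM in tumours labelled Il1f5 KO (-1.48 ± 0.19, adjusted p = 0.0027). Mki67, which encodes a nuclear antigen of cycling cells, had 137 and 146 CPM in Il1f9 KO tumours and 184 and 157 CPM in tumours labelled Il1f5 KO, with an adjusted p of 0.26. The count was 3 of 25 without the tumour labelled Il1f5 KO replicate 1. Between WT tumours 3 were higher and 4 lower in the Il1f9 line (median -0.04, against -0.57 between KO tumours). No member's contrasts were found to differ, where 0.0784% of all genes passed that test.

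**Figure D3:**
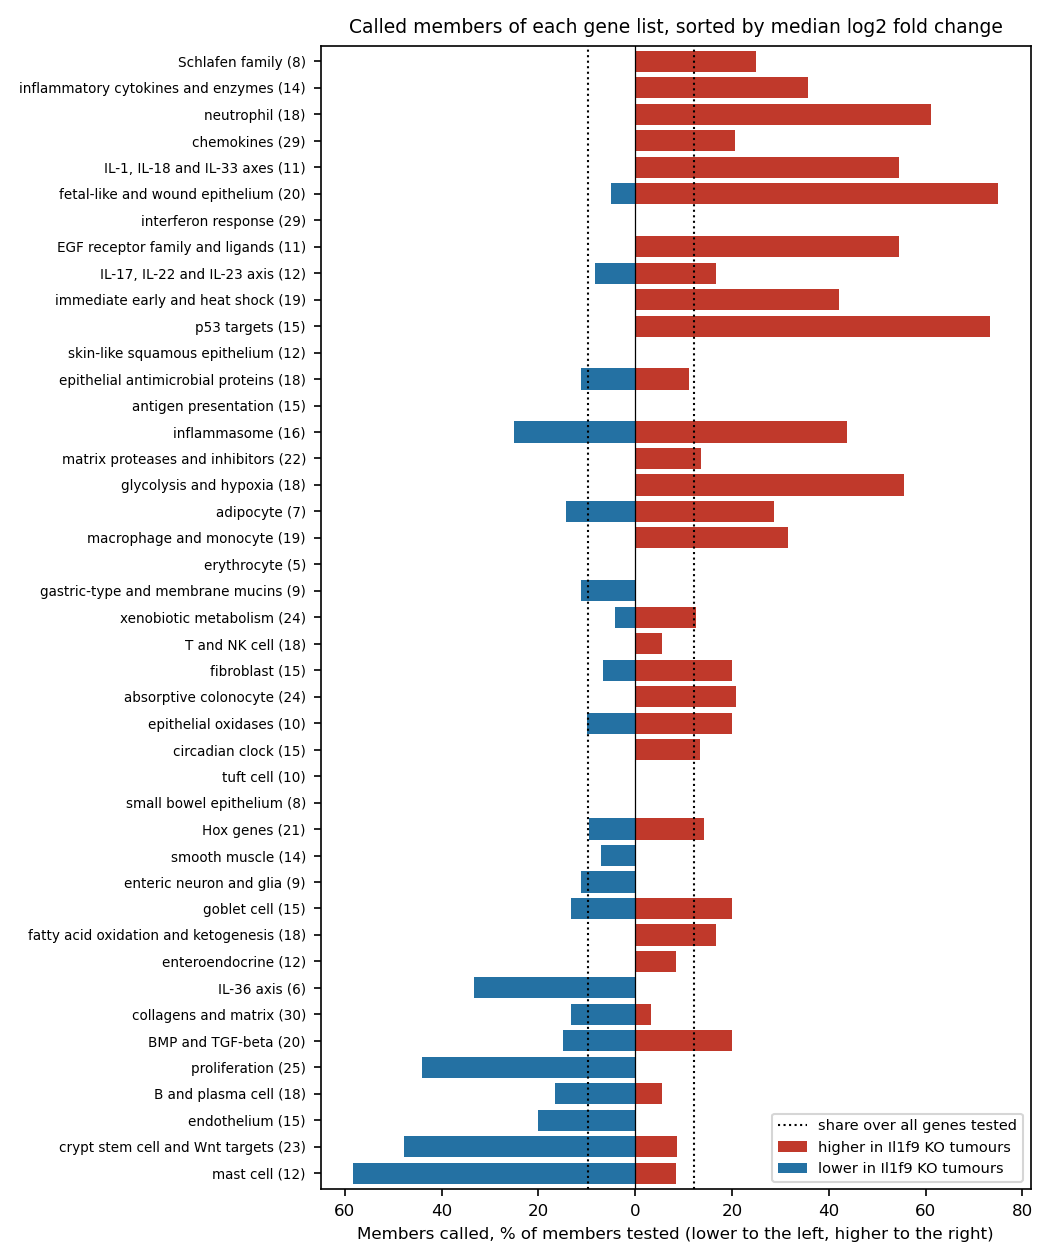
Share of each of 43 gene lists (sex-linked genes left out) called between KO tumours, in percent of its members tested (number in brackets), with genes higher in Il1f9 KO tumours to the right and lower ones to the left. Dotted lines give the shares over all genes, 12.2% higher and 9.83% lower. The p53, wound epithelium and neutrophil lists reach furthest to the right, and the mast cell, Wnt and proliferation lists furthest to the left.

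Inflammatory genes were higher in Il1f9 KO tumours, as they were in WT tumours of the Il1f9 line. The IL-1, IL-18 and IL-33 list had 6 of 11 members higher and none lower (54.5% called, median 1.42). The inflammatory cytokines and enzymes had 5 of 14 (35.7%, median 1.77) and the chemokines 6 of 29 (20.7%, median 1.56), again with none lower. Over all genes 12.2% were higher and 22.0% were called, so the share of chemokines called was near that of all genes. Between WT tumours 7 of 11, 8 of 14 and 8 of 29 were higher (medians 1.49, 2.43 and 1.08), with 3 chemokines lower. No member's contrasts were found to differ. Il1b, which encodes IL-1 beta, had 445 and 564 CPM in Il1f9 KO tumours, against 58.6 and 77.0 CPM in tumours labelled Il1f5 KO (2.90 ± 0.45, adjusted p = 0.0073, edgeR). Il1rn, the IL-1 receptor antagonist, had 348 and 241 CPM in Il1f9 KO tumours and 130 and 129 CPM in tumours labelled Il1f5 KO. The chemokine Cxcl5, which attracts neutrophils, had 733 and 993 CPM, against 191 and 217 CPM in tumours labelled Il1f5 KO (2.08 ± 0.26, adjusted p = 0.0027). Cxcl2, of the same function, had 460 and 389 CPM in Il1f9 KO tumours and 47.1 and 57.8 CPM in tumours labelled Il1f5 KO (3.02 ± 0.51, adjusted p = 0.01). Without the tumour labelled Il1f5 KO replicate 1 the counts fell to 1 of 11, 0 of 14 and 1 of 29, and the adjusted p was 0.076 for Il1b, 0.082 for Il1rn and 0.089 for Cxcl2. Without its replicate 2 it was 0.068 for Il1rn and 0.061 for Cxcl2, with 1 of 14 inflammatory genes and 2 of 29 chemokines called. Without Il1f9 KO replicate 1, 13 chemokines were called, while without its replicate 2, 3 chemokines were higher and 1 was lower, and 2 of 14 inflammatory genes were called. The medians were then 0.35 for chemokines and 0.49 for inflammatory genes. Il1r2, the IL-1 decoy receptor, and Cxcl5 stayed called with each library left out.

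Neutrophil markers rose in 11 of 18 cases (61.1%, against 12.2% over all genes), with none lower and a median of 1.64. Their summed level was 1300 to 2058 CPM in Il1f9 KO tumours, against 447 to 534 CPM in tumours labelled Il1f5 KO. Clec4d, a C-type lectin of myeloid cells, had 42.8 and 57.6 CPM in Il1f9 KO tumours and 9.61 and 9.96 CPM in tumours labelled Il1f5 KO (2.36 ± 0.33, adjusted p = 0.004, edgeR). Cxcr2, the receptor for Cxcl2 and Cxcl5, had 38.4 and 24.9 CPM, against 8.74 and 7.14 CPM in tumours labelled Il1f5 KO (adjusted p = 0.0067). Ly6g, the antigen that defines mouse neutrophils, had 119 and 127 CPM in Il1f9 KO tumours, against 41.2 and 61.3 CPM in tumours labelled Il1f5 KO (1.26 ± 0.19, adjusted p = 0.0042). Mpo and Elane, made by immature neutrophils, were too low to be tested. Macrophage and monocyte genes rose in 6 of 19 cases (31.6%, against 12.2% over all genes) with none lower. Their summed level was 1810 to 2551 CPM in Il1f9 KO tumours, against 1076 to 1228 CPM in tumours labelled Il1f5 KO. The part of these cells in the rise of the inflammatory, wound and glycolysis genes was not tested. Without the tumour labelled Il1f5 KO replicate 1, 2 of 18 neutrophil and 1 of 19 macrophage genes were called, and the adjusted p was 0.052 for Clec4d and 0.056 for Cxcr2. Without replicate 2 of that group the counts were 6 and 3, and the adjusted p of Cxcr2 was 0.053. Without Il1f9 KO replicate 1, 11 macrophage genes were called, and without its replicate 2, 3. Between WT tumours 15 of the 18 neutrophil genes were higher in the Il1f9 line (median 3.54), as were 6 of the 19 macrophage genes (median 0.62). No member's contrasts were found to differ in either list.

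Mast cell genes fell, with 7 of 12 lower, 1 higher and a median of -1.76 (66.7% called, against 22.0% over all genes). The summed level of the list was 205 to 270 CPM in Il1f9 KO tumours, against 377 to 662 CPM in tumours labelled Il1f5 KO. Mcpt1, a protease of mucosal mast cells, had 67.2 and 54.3 CPM in Il1f9 KO tumours, against 176 and 300.3 CPM in tumours labelled Il1f5 KO (-1.97 ± 0.27, adjusted p = 0.0035, edgeR). Between WT tumours the direction was the opposite, with 122 and 152 CPM in the Il1f9 line and 60.01 and 46.8 CPM in the Il1f5 line. The contrasts differed by -3.33 ± 0.38 (adjusted p = 0.033), which was 0.15 without the WT tumour of the Il1f5 line replicate 2. Cpa3, the mast cell carboxypeptidase, had 8.42 and 5.28 CPM, against 21.7 and 31.6 CPM in tumours labelled Il1f5 KO (-1.96 ± 0.30, adjusted p = 0.0044). The tryptase Tpsb2 had 5.85 and 4.83 CPM in Il1f9 KO tumours and 22.6 and 29.3 CPM in tumours labelled Il1f5 KO (-2.28 ± 0.37, adjusted p = 0.0048). The member that rose was Hdc, which makes histamine in mast cells and in other myeloid cells, and its adjusted p was 0.077 without the tumour labelled Il1f5 KO replicate 1. The falls numbered 4 without Il1f9 KO replicate 2, while Mcpt1, Mcpt4, Cpa3 and Tpsb2 stayed called with every library left out.

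No member of the interferon response list was called. Of 29 tested, 0 passed the test in either direction (edgeR), although the median was 1.25. Gbp2, a guanylate-binding protein, had 166 and 1712 CPM in Il1f9 KO tumours, against 121 and 173 CPM in tumours labelled Il1f5 KO. Ifit1, a sensor of viral RNA, had 81.5 and 368 CPM in Il1f9 KO tumours and 44.99 and 36.2 CPM in tumours labelled Il1f5 KO (log2 fold change 2.47, adjusted p = 0.092). Rsad2, an antiviral enzyme, had 24.5 and 72.1 CPM, against 12.5 and 6.32 CPM in tumours labelled Il1f5 KO (log2 fold change 2.36, adjusted p = 0.083). Il1f9 KO replicate 2 was the high library in all 3. The median of the list was -0.14 without it and 2.09 without Il1f9 KO replicate 1, when 5 members rose. Antigen presentation genes, 0 of 15 called, behaved likewise, with a median of 0.75 that became -0.76 without Il1f9 KO replicate 2, and 4 members rose without replicate 1.

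**Figure D4:**
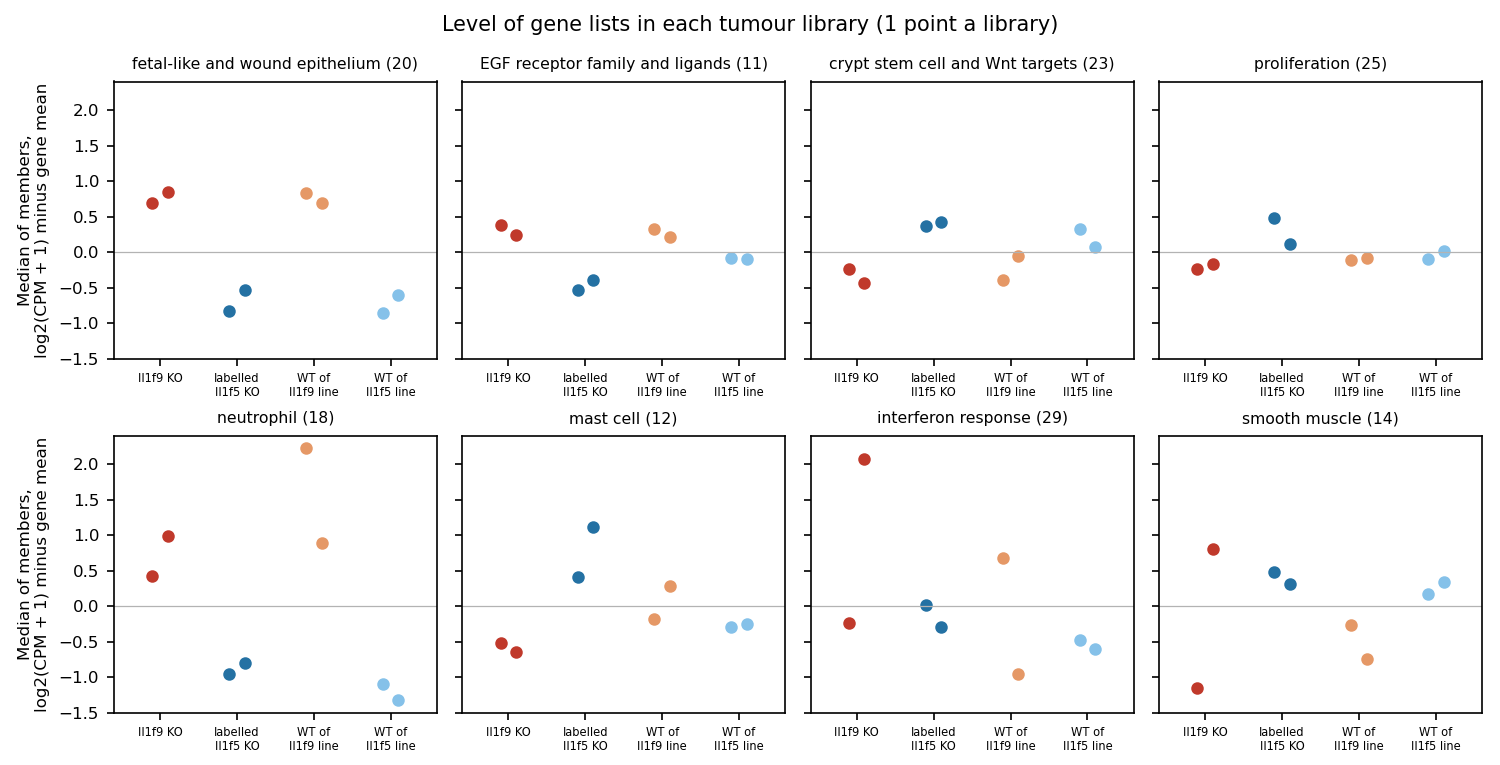
Median level of the members of 8 gene lists in each tumour library, as log2(CPM + 1) minus the gene's mean over the 8 tumour libraries (1 point a library, n = 2 a group, number of members in brackets). For interferon response genes the Il1f9 KO tumours stand at -0.23 and 2.07, and the tumours labelled Il1f5 KO at 0.02 and -0.29, so that only 1 Il1f9 KO tumour lies above them.

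Genes of glycolysis and hypoxia rose in 10 of 18 cases with none lower (median 0.64). That is 55.6%, against 12.2% higher over all genes. Between WT tumours 13 of the 18 were higher in the Il1f9 line (median 1.28), and no member's contrasts were found to differ. Bnip3, a hypoxia-induced mitophagy receptor, had 92.2 and 110 CPM in Il1f9 KO tumours, against 28.8 and 34.0 CPM in tumours labelled Il1f5 KO (1.69 ± 0.16, adjusted p = 0.0019, edgeR). Slc2a1, the glucose transporter GLUT1, had 261 and 330 CPM in Il1f9 KO tumours and 115 and 119 CPM in tumours labelled Il1f5 KO (1.33 ± 0.18, adjusted p = 0.0032). Without the tumours labelled Il1f5 KO replicate 1 or 2, the count was 3 or 4, while both genes stayed called. Without Il1f9 KO replicate 2 it was 5.

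Differentiation genes split. Muc2, the gel-forming mucin of goblet cells, had 224 and 188 CPM in Il1f9 KO tumours, against 589 and 758 CPM in tumours labelled Il1f5 KO (-1.71 ± 0.27, adjusted p = 0.0046, edgeR). Tff3, a goblet cell trefoil peptide, had 317 and 331 CPM in Il1f9 KO tumours and 146 and 192 CPM in tumours labelled Il1f5 KO (0.94 ± 0.20, adjusted p = 0.012). The goblet list as a whole had 3 of 15 higher and 2 lower (33.3% called, median -0.01). Absorptive colonocyte genes had 5 of 24 higher and none lower (20.8% called, median 0.27). Over all genes 22.0% were called, so the colonocyte share was near that of all genes. Between WT tumours 9 goblet genes were lower in the Il1f9 line and 1 higher, and 4 colonocyte genes were lower and none higher. No member's contrasts were found to differ. Krt20, a keratin of mature colonocytes, had 941 and 827 CPM in Il1f9 KO tumours, against 251 and 346 CPM in tumours labelled Il1f5 KO (1.57 ± 0.24, adjusted p = 0.0042). Without the tumour labelled Il1f5 KO replicate 1 the adjusted p of Tff3 was 0.10, and 1 goblet and 2 colonocyte genes were called. Without its replicate 2, 3 colonocyte genes were called, and without Il1f9 KO replicate 2, 9.

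The innate sensors of the inflammasome list moved in both directions, with 7 of 16 higher and 4 lower (68.75% called, against 22.0% over all genes). Between WT tumours 4 were higher and 6 lower in the Il1f9 line, and no member's contrasts were found to differ. Aim2, a sensor of cytosolic DNA, had 119 and 121 CPM in Il1f9 KO tumours, against 43.5 and 58.8 CPM in tumours labelled Il1f5 KO (1.23 ± 0.17, adjusted p = 0.0032, edgeR). Gsdmd, the pore-forming effector, had 380 and 435 CPM in Il1f9 KO tumours and 184 and 193 CPM in tumours labelled Il1f5 KO (1.11 ± 0.16, adjusted p = 0.0039). Nlrp6, an epithelial sensor, had 8.48 and 12.6 CPM, against 66.0 and 52.6 CPM in tumours labelled Il1f5 KO (-2.49 ± 0.38, adjusted p = 0.005). These 3 stayed called with each library left out, while the list counts became 2 higher and 3 lower without the tumour labelled Il1f5 KO replicate 1, and 3 and 2 without its replicate 2.

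Il1f9 and Il1f5 lie 83386 bases apart on chromosome 2, and genes near a targeted locus can carry sequence of the strain in which a knockout was made. Within 10 Mb on either side, 55 of 248 tested genes were called (22.2%), against 22.0% over all genes. Of these, 20 were higher and 35 lower. Apart from the targeted genes, Enkur, at 2.82 ± 0.59, had the largest rise there (adjusted p = 0.011, edgeR) and Mvb12b, at -1.97 ± 0.26, the largest fall (adjusted p = 0.0029). The adjusted p of Enkur was 0.090 without the tumour labelled Il1f5 KO replicate 1. Over whole autosomes the share called ran from 18.1% on chromosome 9 to 26.5% on chromosome 13.

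The same genotypes were compared in DSS colitis colon, where 21.3% of 18299 genes were called. That count was 1567 without Il1f9 KO colon replicate 1, 885 without its replicate 2 and 2368 without the colon labelled Il1f5 KO replicate 1, against 3904 with all libraries. The tumour and colitis comparisons share no library. Of 3814 tumour calls that were also tested in colitis, 639 were called there in the same direction (16.8%, and 16.97% of the 3765 colitis calls) and 326 in the opposite direction. The difference between the tissues passed the test for 22.9% of 19514 genes. Trp53 had the smallest p of all. In colitis it had 43.8 and 50.5 CPM in Il1f9 KO colons and 50.4, 46.7 and 63.7 CPM in colons labelled Il1f5 KO (-0.18 ± 0.13, adjusted p = 0.31, edgeR), and the tumour contrast exceeded the colitis contrast by 2.79 ± 0.19 (adjusted p = 2e-06). No p53 list member was called in colitis (0 of 15 by edgeR). Camk2b was likewise not called in colitis, with 17.9 and 14.0 CPM in Il1f9 KO colons and 10.2, 10.9 and 18.4 CPM in colons labelled Il1f5 KO, and its contrasts differed between tissues by -6.25 ± 0.69 (adjusted p = 9.7e-05). Ephx1 had 20.9 and 22.3 CPM in Il1f9 KO colons and 21.2, 25.4 and 24.2 CPM in colons labelled Il1f5 KO.

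Myeloid genes had opposite directions in the tissues. In colitis 11 of 17 neutrophil genes were lower in Il1f9 KO colons and none higher (median -2.78), against 21.3% of all genes called. Of the list, 13 passed the test of the difference between tissues, against 22.9% of all genes. Cxcr2 had 3.26 and 0.557 CPM in Il1f9 KO colons, against 8.94, 15.9 and 13.4 CPM in colons labelled Il1f5 KO (-2.78 ± 0.56, adjusted p = 0.011, edgeR). Its contrasts differed by 4.76 ± 0.72 (adjusted p = 0.001). The differences were 4.47 for Il1r2, 6.45 for Cxcl2 and 4.03 for Clec4d. The epithelial genes Lama3 and Egfr were also lower in Il1f9 KO colons, at -0.76 and -0.42, and differed between tissues by 2.87 and 1.76. Itgav, an integrin chain, was higher in Il1f9 KO tumours (1.63 ± 0.14, adjusted p = 0.0013) and lower in Il1f9 KO colons (-0.55 ± 0.12, adjusted p = 0.01), as was Bnip3. The proliferation gene Mcm3 was not called in colitis (0.41 ± 0.25), and its contrasts differed by -1.69.

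The clock output genes Dbp and Tef, whose levels follow the time of day in mouse tissues, were among the 5 genes with the smallest p of this difference. Dbp had 2.71 and 1.82 CPM in Il1f9 KO colons, against 46.7, 33.2 and 32.1 CPM in colons labelled Il1f5 KO (-4.05 ± 0.28, adjusted p = 0.00028, edgeR). In tumours it had 5.19 and 4.83 CPM in Il1f9 KO tumours and 2.41 and 2.67 CPM in tumours labelled Il1f5 KO, with an adjusted p of 0.058. Circadian clock genes were called in 14 of 15 cases in colitis, 3 higher and 11 lower, against 21.3% called over all genes. In tumours 2 of 15 were called (13.3%), below the 22.0% called over all genes. The tumour median was 0.27, and 0.25 and 0.30 without the tumour labelled Il1f5 KO replicate 1 or 2. The time of tissue collection is not given in the labels, and its part in the colitis contrast was not tested.

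**Figure D5:**
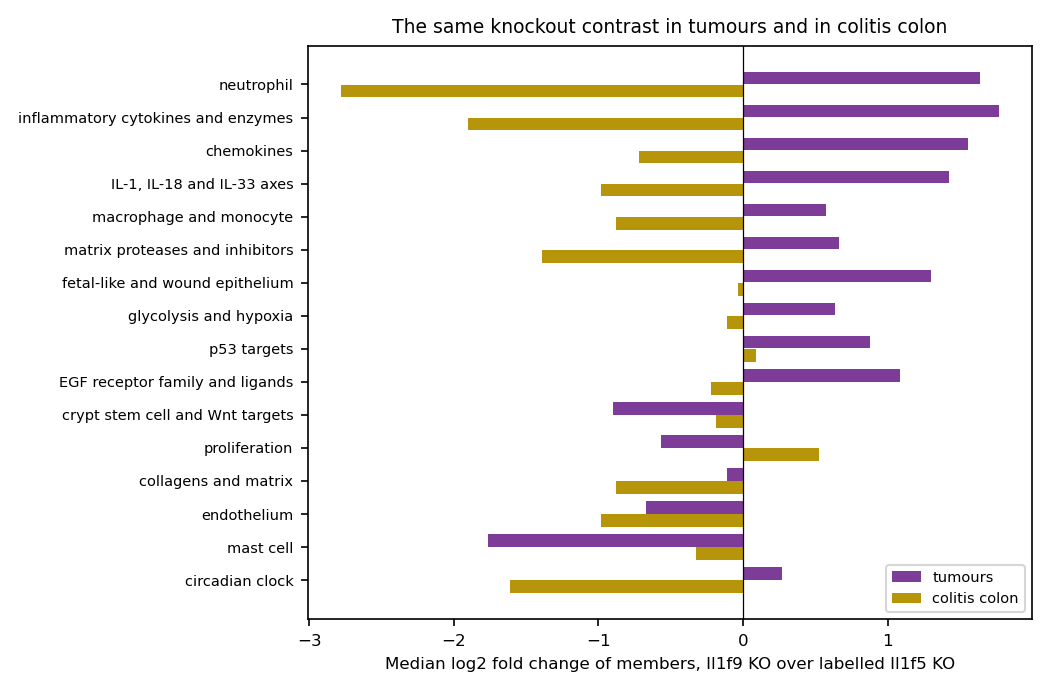
Median log2 fold change of 16 gene lists, Il1f9 KO over labelled Il1f5 KO, in tumours (upper bar) and in DSS colitis colon (lower bar). The neutrophil list stands at 1.64 in tumours and -2.78 in colitis, and the p53 list at 0.88 and 0.09.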

How the data were processed

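RNA-seq of poly(A) RNA from colorectal tumours and colitis colons of C57BL/6 mice was used. The authors deposited whole-number read counts per gene, and per the submitters' processing notes reads were handled with Trim Galore 0.6.4, HISAT2 2.0.5 and featureCounts 2.0.0. No source used here names a genome build. Of the 17859 genes tested, 17211 have coordinates identical to GENCODE M21 on GRCm38. Per the labels' protocols the library kit does not keep strand, so overlapping and antisense genes cannot be told apart. The 18 per-library FPKM columns were not used.

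The tumour tables were joined by gene ID. Counts were filtered by filterByExpr, scaled by TMM and fitted with group means by edgeR 4.0.16 in R 4.3.3 (quasi-likelihood, robust) on 8 tumour libraries, 10 colitis libraries, or all 18 for the difference between tissues, which share 1 estimate of spread within each fit. P-values were adjusted over all genes by Benjamini-Hochberg. The smallest chi-square per gene between libraries of any group was 6.19, so no library was a repeat of another of its own group. Libraries of different groups were not compared in this way. The fit was also run on simulated data, in which all groups shared the same levels apart from a set of changed genes. The tumour groups here differ more widely than that, so the run does not measure how the fit performs on these data. The members and lists were chosen with earlier results of these data known.

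Named genes were the targeted genes, the 12 largest rises and falls among called genes that do not overlap between groups (mean log2 CPM of at least 1, predicted genes and antigen receptor segments left out), up to 4 called members a list, the 5 genes of smallest p for each difference and the called genes within 10 Mb of the targeted loci. Other list members that were named, and Trp53-ps, were picked with their values in view. The alternatives tried were DESeq2 1.42.0, its size factors, no filter, no robust estimation, only the 2 groups compared, a fold threshold, a replicate block and each library left out. Same-numbered libraries deviated from their group means with correlations of -0.12 to 0.11 in tumours and -0.29 to 0.13 in colitis, so no pairing by number was seen. With 2 or 3 libraries a group, such correlations cannot show that the samples were unpaired. Intervals and floors cover counting error only. A result for 1 list member is not reported here.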

Additional observations from a re-analysis of the deposited data

Results flagged for a closer look

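Genes whose effects differed between groups by a test of the difference itself are given here, as log2 values from edgeR with p adjusted over all genes. The Il1f9 KO effect minus the labelled Il1f5 KO effect in tumours was 2.53 for Trp53, -5.30 for Camk2b, 2.47 for Ephx1, -9.75 for Il1f9 and -3.33 for Mcpt1. It was -2.76 for Nox1, an epithelial oxidase, -2.71 for Trf, which encodes transferrin, 2.34 for Fhl1, 2.46 for Hepacam2 and -1.77 for the ribosomal gene Rps27. Among predicted genes it was 3.26 for Gm42047, 3.88 for Gm15675, 4.59 for Gm15674 and 3.65 for Gm12411. Only Trp53 and Camk2b of these 14 were called in all 13 alternatives. Rps27 has near-identical copies, and its reads may be split between them.

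The contrast of Il1f9 KO over labelled Il1f5 KO in tumours minus the same contrast in colitis was 2.79 for Trp53, 5.01 for Dbp, 2.17 for Itgav, 2.84 for Bnip3 and 3.17 for Tef. It was 4.47 for Il1r2, 4.76 for Cxcr2, 6.45 for Cxcl2 and 4.03 for Clec4d. It was 2.87 for Lama3, 1.76 for Egfr, -1.69 for Mcm3, -6.25 for Camk2b and 3.30 for Ephx1.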

How the results depend on the processing

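Between KO tumours 3937 genes were called, 1986 with only the 2 groups fitted and 1886 with a change of 1 or more log2 units. Leaving out 1 library gave 643 to 4672 calls. The WT comparison gave 2854 at that size and 1670 to 6865 with a library left out, against 5096. The difference between the contrasts gave 14 genes, and 557 by the DESeq2 Wald test, 25 with DESeq2 size factors, 1362 with no filter on low counts, 7 without robust estimation and 2 to 319 with a library left out. The colitis comparison gave 903 at that size and 885 to 5029 with a library left out, against 3904. The difference between tissues gave 2448 and 2415 to 5096, against 4466. The causes were not tested. With the replicate block, counts were 3385 between KO tumours, 4533 between WT tumours and 4 for the difference between the contrasts. They were 2789 in colitis and 3770 for the difference between tissues. No pairing by number was seen in either tissue, though so few libraries cannot show its absence. Of 2842 values for 203 named genes under the alternatives, 2332 kept their direction and side of the threshold, 503 lost the call, 7 gained one and 0 reversed. Without the tumour labelled Il1f5 KO replicate 1, 132 named genes lost the call. Where a library left out leaves 1 in a group, its spread is taken from the other groups. With 2 libraries a group, genes at a few counts, such as Il1f9 and Il1f5, have folds set mainly by counting error.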

Other observations

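Genes on the Y chromosome differed in level between the groups, though Ddx3y was read in every KO tumour. Xist, an RNA made from the inactive X chromosome, had 1 and 0 counts in Il1f9 KO tumours. It had 0 and 4 counts in tumours labelled Il1f5 KO. Of 4 sex-linked genes tested, 3 were higher in Il1f9 KO tumours, against 12.2% higher over all genes. In WT tumours of the Il1f9 line 2 were higher, against 16.8% over all genes. No member's contrasts were found to differ. Eif2s3y had 86.2 and 106 CPM in Il1f9 KO tumours, against 29.7 and 25.7 CPM in tumours labelled Il1f5 KO (1.79 ± 0.22, adjusted p = 0.0027, edgeR). Ddx3y had 63.4 and 69.6 CPM in Il1f9 KO tumours and 28.6 and 22.2 CPM in tumours labelled Il1f5 KO. Kdm5d had 33.0 and 28.4 CPM in Il1f9 KO tumours and 23.0 and 30.4 CPM in tumours labelled Il1f5 KO, and was not called (adjusted p = 0.49).

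The Il1f9 KO tumours stood apart from each other in muscle genes. The summed level of the smooth muscle list was 147 to 933 CPM in Il1f9 KO tumours, against 378 to 420 CPM in tumours labelled Il1f5 KO. Of the 14 tested, 1 was called lower (7.14%, against 9.83% lower over all genes). Des, which encodes desmin, had 7.10 and 173 CPM in Il1f9 KO tumours and 42.7 and 34.0 CPM in tumours labelled Il1f5 KO. Myh11, the smooth muscle myosin, had 4.66 and 61.5 CPM in Il1f9 KO tumours and 30.8 and 31.6 CPM in tumours labelled Il1f5 KO. Replicate 2 was the high Il1f9 KO library in both genes, as for interferon response genes.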
